A study of Mus musculus with 4 samples.

Results

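The machinery through which D cyclins start the cell cycle was measured here as messenger RNA in sorted pancreatic β cells: the 3 D cyclin genes, the genes of the 2 kinases they activate and 5 genes of kinase inhibitors. The 10 genes were taken by symbol, and each matched 1 of the 51912 rows of the deposited gene table. Of these, 9 passed the filter of at least 10 counts in at least 2 libraries that left 16517 genes to test, with at least 48 counts in every library, and Cdkn2a did not. The 2 Robo mutant libraries came from mice with homozygous Robo1delta alleles and homozygous Robo2flx alleles, and the 2 control libraries from mice with wild-type Robo1 and Robo2. All 4 libraries came from neonates at day 13 that carried 1 copy of Ucn3-Cre and 1 copy of the Rosa26-lsl-H2B-mCherry reporter, so the controls carried Cre as well. Ucn3 is switched on in maturing β cells, and Cre made there releases the nuclear mCherry used for sorting and recombines floxed Robo2, whereas Robo1delta is a deletion allele. The labels do not say whether libraries came from separate or pooled animals, so the spread between libraries may be partly technical.

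D cyclins are made in response to growth signals and bind CDK4 or CDK6. The active pair phosphorylates the retinoblastoma protein, which releases E2F factors and lets the cell enter DNA synthesis. Inhibitors of the INK4 family bind CDK4 and CDK6 and keep the D cyclins off, while those of the Cip/Kip family bind cyclin and kinase together, hold back CDK2 and also help D cyclin and CDK4 to assemble. In the mouse, CDK4 and cyclin D2 are needed for the postnatal growth of β-cell mass, and neonatal β cells divide far more often than adult ones.

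The targeted receptors were lower in both mutant libraries. Robo1 was at 22.3 and 21.0 CPM (counts scaled to library total and composition by edgeR's TMM method) in the Robo mutant libraries, against 48.5 and 104 CPM in the controls. Robo2 was at 32.7 and 25.6 CPM in the mutant libraries, against 75.2 and 118 CPM in the controls. The log2 change of Robo1 was -1.82, and -1.16 without control 2. Neither passed edgeR's quasi-likelihood test over all genes (adjusted p = 0.680 for both, unadjusted p = 0.0080 and 0.0024), while DESeq2 called both (adjusted p = 0.0019 and 1.99e-05). Library totals ran from 38886129 to 49593712 counts, and 3 counts, taken as the limit of detection, correspond to 0.0600 to 0.0736 CPM. All 10 β-cell markers, Ins2 and Ucn3 among them, were detected in every library. Robo mutant 2 stood apart in markers of other cells: the 14 acinar genes summed to 3150 CPM in Robo mutant 1 and 48788 CPM in Robo mutant 2, against 5007 and 787 CPM in control 1 and control 2. The 10 stromal genes summed to 1097 and 12.9 CPM in the mutant libraries, against 2417 and 703 CPM in the controls, and 5 of the 10 were at 0 in Robo mutant 2. The 10 β-cell markers summed to 227395 and 160199 CPM in the mutant libraries, against 231264 and 197535 CPM in the controls. Other libraries stood apart in markers of other islet cells. The 6 delta-cell markers, led by Sst, summed to 2651 and 1438 CPM in the mutant libraries, against 1226 and 1179 CPM in the controls, with Robo mutant 1 highest. The 7 alpha-cell markers, led by Gcg, summed to 19381 and 24277 CPM in the mutant libraries, against 23926 and 12020 CPM in the controls, with control 2 lowest. In bulk libraries, a change in the number of cells and a change in RNA per cell cannot be told apart.

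Of the 9 tested genes, 8 had a higher mean and 1 a lower mean in the Robo mutant libraries, with a median log2 change of 0.74, against -0.013 for all tested genes. Both mutant libraries lay above both controls for 6 of the 9: the cyclin genes Ccnd2 and Ccnd3, the kinase gene Cdk6 and the Cip/Kip inhibitor genes Cdkn1a, Cdkn1b and Cdkn1c. Both lay below both controls for 1, the INK4 inhibitor gene Cdkn2c, and the groups overlapped for Ccnd1 and Cdk4. Over all tested genes, 16.1% had both mutant libraries above both controls and 20.4% had both below. With each library left out in turn, the count above was 6 to 8 and the count below stayed at 1, beside 25.6% to 36.5% and 32.0% to 42.0% of all genes. None of the 9 passed edgeR's test at an adjusted p under 0.05 (smallest adjusted p = 0.680), nor did any of the 16517 genes (0%). At an unadjusted p under 0.05 there was 1 of the 9, Cdkn1a, against 6.21% of all tested genes. DESeq2 called 1 of the 9, again Cdkn1a, against 0.914% of all tested genes. With 2 libraries against 2, an exact two-sided permutation test of 1 gene cannot give a p below 0.333.

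**Figure D1:**
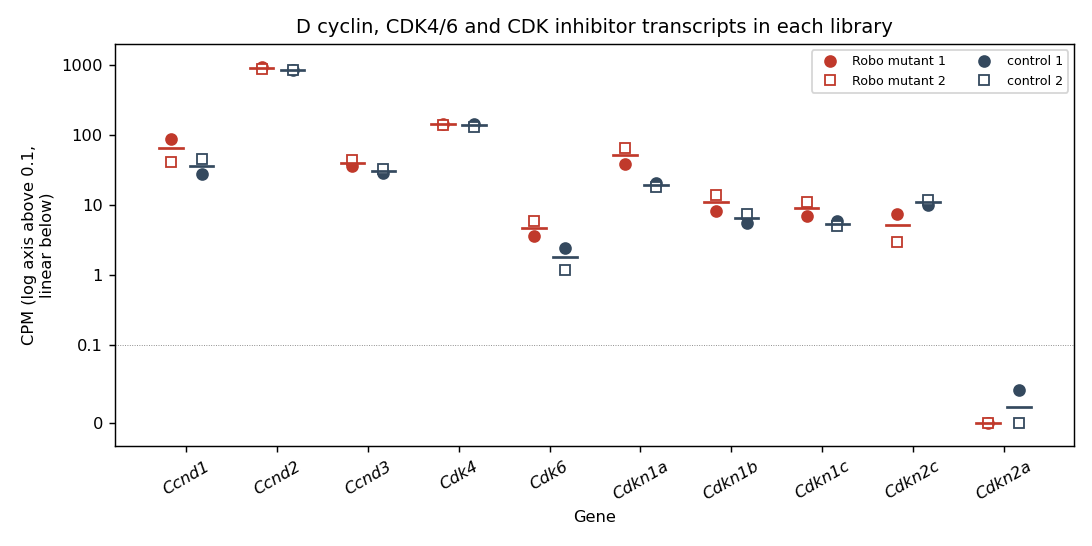
CPM of the 10 genes in each library, on a log axis above 0.1 and a linear one below, with a bar at the mean of each genotype (n = 2 each). Cdkn1a lies at 38.9 and 64.5 CPM in Robo mutant libraries and at 20.7 and 18.4 CPM in controls, Ccnd2 is the most abundant gene, and Cdkn2a has counts in control 1 alone.

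Set per kilobase of merged exon, Ccnd2 and Cdk4 were far above the rest in both genotypes. Ccnd2 averaged 95.9 ± 3.46 CPM per kilobase in Robo mutant libraries and 89.9 ± 1.43 in controls, and Cdk4 averaged 43.9 ± 1.13 in mutant libraries and 42.3 ± 3.29 in controls (SD, n = 2 each). Over the 4 libraries the order then ran Ccnd1 (10.8 CPM per kilobase), Cdkn1a (10.0), Ccnd3 (4.07), Cdkn1c (3.53), Cdkn2c (3.01), Cdkn1b (1.93), Cdk6 (0.233) and Cdkn2a (0.0089). Ccnd1 and Cdkn1a, Ccnd3 and Cdkn1c, Cdkn1c and Cdkn2c, and Cdkn2c and Cdkn1b were neighbours that lay within the spread between libraries in at least 1 genotype or changed places between genotypes. Cdkn1a lay above Ccnd3, and Cdk6 below Cdkn1b, in every library. Ccnd1 and Cdkn1a exchanged places when the longest transcript served as the length.

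Among the D cyclins, Ccnd2 was the most abundant and the steadiest. It encodes cyclin D2, the main D cyclin of mouse β cells, and lies on chromosome 6 (127125162 to 127152193, minus strand, build GRCm38 as for the other genes). Ccnd2 was at 925 and 879 CPM in Robo mutant 1 and Robo mutant 2, against 837 and 856 CPM in control 1 and control 2. The groups did not overlap, but the gap between them was 23.4 CPM, less than the distance of 46.1 CPM between the mutant libraries. On the log2 scale the difference was 0.09 (SE 0.13), and its 95% interval ran from -0.27 to 0.45 (edgeR, unadjusted p = 0.528, adjusted p = 1.00). With each library left out it stayed between 0.06 and 0.13.

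Ccnd3, the cyclin D3 gene on chromosome 17 (47505051 to 47599691, plus strand), was at 36.4 and 44.3 CPM in the mutant libraries, against 29.0 and 33.3 CPM in the controls. Its lowest mutant library lay 3.14 CPM above its highest control, a gap smaller than that between replicates of either genotype. This came to a log2 change of 0.37 (SE 0.19), with an interval from -0.13 to 0.87 (edgeR, unadjusted p = 0.111, adjusted p = 0.904). Without Robo mutant 2 it was 0.23. Bysl, which overlaps its 3′ end on the opposite strand, had 1386 and 760 counts in the mutant libraries, against 795 and 753 in the controls.

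Ccnd1, the cyclin D1 gene and a classical target of growth factor signalling, differed between the mutant libraries. It lies on chromosome 7 (144929931 to 144939925, minus strand). Ccnd1 was at 88.8 CPM in Robo mutant 1 and 41.3 CPM in Robo mutant 2, against 27.4 and 44.9 CPM in control 1 and control 2. Robo mutant 1 was the high library, while Robo mutant 2 lay between the controls. Sst, the somatostatin gene of delta cells, was also highest in Robo mutant 1, at 2144 and 803 CPM in the mutant libraries, against 792 and 711 CPM in the controls, and its part in the Ccnd1 values was not tested. For Ccnd1 the log2 change was 0.85 (SE 0.46; edgeR, unadjusted p = 0.129, adjusted p = 0.922), and without Robo mutant 1 it was 0.19. Without Robo mutant 2 its adjusted p in edgeR was 0.135. Since the libraries carry no strand information, reads at the end of Ccnd1 cannot be told from those of Oraov1, which is transcribed from the opposite strand and shares 818 bases with it. Oraov1 had fewer counts in the mutant libraries, 572 and 510, against 841 and 741 in the controls.

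Per kilobase, Ccnd2 made up 81.0% and 87.1% of the summed D cyclin transcripts in Robo mutant 1 and Robo mutant 2, against 90.7% and 87.2% in control 1 and control 2. Ccnd1 made up 15.5% and 8.18% in the mutant libraries, against 5.94% and 9.15% in the controls. Ccnd3 lay between 3.37% and 4.71% in all 4 libraries, and its mean share was 5.75% with the longest transcript as length, against 3.78% with merged exons.

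Cdk4, the gene of the main D cyclin kinase of β cells, did not separate the genotypes. It lies on chromosome 10 (127063534 to 127067920, plus strand). It was at 145.1 and 139.9 CPM in the mutant libraries, against 144.9 and 129.8 CPM in the controls. Its log2 change was 0.05 (SE 0.13), with an interval from -0.28 to 0.39 (edgeR, unadjusted p = 0.695, adjusted p = 1.00), so a 2-fold change (1 on the log2 scale) lay outside the interval. It turned to -0.0027 when libraries were scaled by their totals alone and to -0.023 without control 2. Tspan31, on the opposite strand, shares 641 bases with Cdk4 and had 3774 and 2703 counts in the mutant libraries, against 3886 and 3427 in the controls.

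Cdk6 encodes the other D cyclin kinase, which mouse islets are known to make little of. It lies on chromosome 5 (3341485 to 3531008, plus strand). It was at 3.60 and 5.85 CPM in the mutant libraries (180 and 266 counts), against 2.40 and 1.18 CPM in the controls (115 and 48 counts). Both mutant libraries were above both controls, and control 2 was the lowest. Control 2 also had the lowest sum of several lists, among them the alpha-cell and acinar markers and the immediate early genes described below. Their part was not tested. Cdk6 had a log2 change of 1.40 (SE 0.68), with an interval from -0.42 to 3.22 (edgeR, unadjusted p = 0.103, adjusted p = 0.900), and it was 0.98 without control 2 and 2.00 without control 1. Per kilobase, Cdk6 made up 0.573% and 0.961% of the 2 kinase transcripts in the mutant libraries, against 0.383% and 0.210% in the controls.

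The upstream sequences of both kinase genes are shown to set the steady Cdk4 beside Cdk6. They are the 250 bases before the RefSeq start (GRCm38.p6, plus strand), at chr10:127063285-127063534 for Cdk4 and chr5:3343643-3343892 for Cdk6. Capitals mark the E-box CACGTG, bound by Myc and related factors, and in Cdk6 also the TATA box TATAAA.
Cdk4: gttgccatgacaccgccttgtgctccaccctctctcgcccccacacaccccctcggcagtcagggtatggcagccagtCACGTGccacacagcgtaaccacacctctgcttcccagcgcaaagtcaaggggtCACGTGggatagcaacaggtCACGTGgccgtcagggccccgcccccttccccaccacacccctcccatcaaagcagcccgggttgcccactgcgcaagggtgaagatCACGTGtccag
Cdk6: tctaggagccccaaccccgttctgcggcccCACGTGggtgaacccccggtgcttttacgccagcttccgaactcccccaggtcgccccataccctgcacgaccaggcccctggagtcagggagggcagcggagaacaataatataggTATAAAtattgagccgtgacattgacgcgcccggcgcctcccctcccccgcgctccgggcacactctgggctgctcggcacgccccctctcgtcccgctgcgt
The Cdk4 window holds 4 E-boxes and 1 GC box (GGGCGG, left in lower case), and the Cdk6 window holds 1 E-box and 1 TATA box. The TATA box match begins 103 bases before the RefSeq start of Cdk6. That window lies inside the span given above for the gene, not before its outer end. Searched on both strands, an E-box was found in 6.02% and a TATA box in 12.4% of 32851 RefSeq windows of this length. Myc itself was at 9.50 and 10.7 CPM in the mutant libraries, against 10.6 and 9.29 CPM in the controls. A match describes letters and does not show binding.

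**Figure D2:**
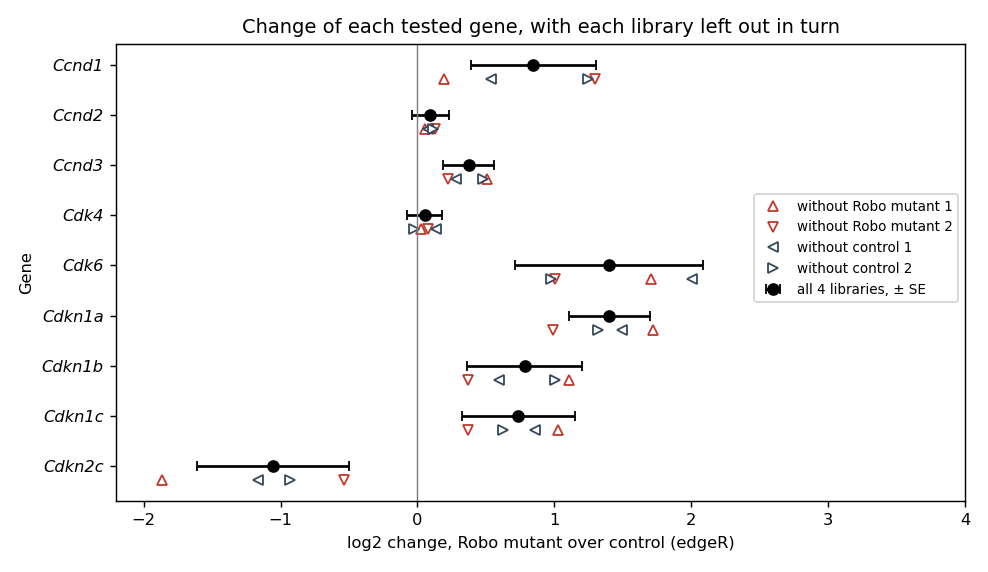
Log2 change of each tested gene, Robo mutant over control, in edgeR (black points, ± SE, n = 2 each), with the value when each library is left out below it (triangles). Cdkn1a stays between 0.99 and 1.72, Ccnd1 drops to 0.19 without Robo mutant 1, and Cdkn2c is the gene whose value from all 4 libraries is negative.

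Of the inhibitors, Cdkn1a differed most clearly between the genotypes. It encodes p21, the Cip/Kip inhibitor induced by p53 and by stress and growth factor signals, and lies on chromosome 17 (29090976 to 29100727, plus strand). Cdkn1a was at 38.9 and 64.5 CPM in Robo mutant 1 and Robo mutant 2 (1944 and 2934 counts), against 20.7 and 18.4 CPM in control 1 and control 2 (993 and 750 counts). The lowest mutant library was 18.1 CPM above the highest control, and the mutant libraries themselves were 25.6 CPM apart. It was 2.64-fold higher, or 1.40 on the log2 scale (SE 0.30), with an interval from 0.61 to 2.19 (edgeR, unadjusted p = 0.0068, adjusted p = 0.680). By unadjusted p it ranked 91 among the 16517 genes. DESeq2, on the same counts, gave an adjusted p of 0.0089. Its log2 change was 1.72 without Robo mutant 1 and 0.99 without Robo mutant 2, with adjusted p in edgeR of 0.134 and 0.133. Over all alternatives other than DESeq2 its adjusted p ran from 0.133 to 1.00.

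RefSeq lists 2 starts for Cdkn1a. The 250 bases before each are shown because Cdkn1a was the member called by DESeq2. They lie at chr17:29090729-29090978 and chr17:29093519-29093768 (GRCm38.p6, plus strand), and capitals mark matches to the p53 half-site.
Cdkn1a, upstream start: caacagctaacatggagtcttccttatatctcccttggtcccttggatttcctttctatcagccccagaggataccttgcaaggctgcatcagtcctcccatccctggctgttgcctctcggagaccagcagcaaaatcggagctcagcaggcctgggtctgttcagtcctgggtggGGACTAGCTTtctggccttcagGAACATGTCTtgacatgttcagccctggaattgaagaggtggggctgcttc
Cdkn1a, downstream start: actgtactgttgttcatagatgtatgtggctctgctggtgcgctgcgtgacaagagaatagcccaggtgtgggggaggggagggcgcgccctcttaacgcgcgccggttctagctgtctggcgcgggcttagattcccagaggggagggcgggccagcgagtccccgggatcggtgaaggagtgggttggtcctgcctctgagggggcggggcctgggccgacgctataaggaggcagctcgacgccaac
The upstream window holds 2 half-site matches, GGACTAGCTT and GAACATGTCT, which begin 73 and 51 bases before the start. The downstream window holds none, and has 2 GC boxes. A half-site was found in 7.13% of RefSeq windows, searched on both strands. Gene-level counts do not say which start was used.

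Genes known to respond to p53 were set beside Cdkn1a. Of 21 such genes, 12 were higher and 9 lower, with a median log2 change of 0.029. Both mutant libraries lay above both controls in 2 and below both in 3 (16.1% and 20.4% of all tested genes). In edgeR 0 passed, 1 had an unadjusted p under 0.05 and DESeq2 called 1 (6.21% and 0.914% of all tested genes). The gene called was Plk2, a polo-like kinase gene that growth factors also induce, at 125 and 201 CPM in the mutant libraries, against 78.2 and 52.3 CPM in the controls (log2 change 1.32, DESeq2 adjusted p = 0.0051). Btg2, an antiproliferative gene, had a log2 change of 1.05, which was 0.60 without control 2 and 1.72 without control 1. Sesn1, a sestrin gene, had one of -0.34, which was -0.22 without Robo mutant 1. Neither was called. Trp53 RNA was at 30.8 and 29.4 CPM in the mutant libraries, against 31.8 and 28.2 CPM in the controls, and p53 protein was not measured.

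Immediate early genes, which are induced within minutes by growth factors or by handling of cells, had a positive log2 change in all 23 of the list, with a median of 0.98. Both mutant libraries lay above both controls in 16 of the 23, against 16.1% of all tested genes, and the groups overlapped in the other 7, Egr2 and Fosl1 among them. They summed to 13491 and 16519 CPM in Robo mutant 1 and Robo mutant 2, against 10847 and 4722 CPM in control 1 and control 2, with Fos the most abundant. Control 2 stood apart: the median deviation of the list from each gene's mean over the 4 libraries was 0.36 and 0.78 in the mutant libraries, against 0.07 and -1.08 in control 1 and control 2, on log2(CPM + 1). In edgeR 0 passed, with 4 at an unadjusted p under 0.05, and DESeq2 called 2 (6.21% and 0.914% of all tested genes): Fosl2 (log2 change 1.90) and Atf3 (1.48). Nr4a1, an orphan nuclear receptor gene, came next by p at 1.95, and its log2 change was 2.89 without control 1 and 1.39 without control 2. The 3 genes closest to Cdkn1a in pattern over the 4 libraries were Dusp4, a phosphatase gene of the MAP kinases, Atf3 and Plk2, with root mean square differences in centred log2 CPM of 0.068, 0.139 and 0.147 among 8026 genes searched. For Cdk6, the member with the next smallest p, they were C2cd4a, Arc and Csrnp1 (0.104, 0.138 and 0.155). Over 4 libraries, close matches are easily found among that many genes. No background distance was computed, so how unusual these distances are was not tested. Cdkn1a itself was at 20.7 and 18.4 CPM in control 1 and control 2, and its log2 change was 1.32 without control 2. Whether Cdkn1a differs apart from the pattern of Dusp4, Atf3 and Plk2, or from that of the immediate early list, was not tested. The same holds for Cdk6 beside its nearest genes and that list.

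Both mutant libraries also lay above both controls for the other Cip/Kip genes. Cdkn1b encodes p27, which holds resting cells out of the cycle and is controlled largely at the level of protein, and lies on chromosome 6 (134920401 to 134925513, plus strand). It was at 8.34 and 13.9 CPM in the mutant libraries, against 5.55 and 7.38 CPM in the controls. Robo mutant 1 lay 0.956 CPM above control 2. For Cdkn1b the log2 change was 0.78 (SE 0.42; edgeR, unadjusted p = 0.127, adjusted p = 0.922), and without Robo mutant 2 it was 0.37.

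Its 250 upstream bases are shown as those of another Cip/Kip gene in which both mutant libraries were higher. They lie at chr6:134920151-134920400 (plus strand), and capitals mark the CCAAT box.
Cdkn1b: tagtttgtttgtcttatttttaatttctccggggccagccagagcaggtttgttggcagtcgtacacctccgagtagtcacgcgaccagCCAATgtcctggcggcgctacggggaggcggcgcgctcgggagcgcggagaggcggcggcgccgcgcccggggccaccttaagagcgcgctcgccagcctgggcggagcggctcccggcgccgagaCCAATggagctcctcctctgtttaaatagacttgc
The window holds 2 CCAAT boxes, a motif found in 33.8% of RefSeq windows, and 1 GC box. No p53 half-site was found in it.

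Cdkn1c encodes p57, an imprinted inhibitor expressed from the maternal allele, on chromosome 7 (143458339 to 143461050, minus strand). It was at 6.98 and 11.0 CPM in the mutant libraries, against 5.85 and 4.95 CPM in the controls. As with Cdkn1b, Robo mutant 2 was the high library and Robo mutant 1 lay close to the controls. For Cdkn1c the log2 change was 0.74 (SE 0.41; edgeR, unadjusted p = 0.142, adjusted p = 0.922), and without Robo mutant 2 it was 0.37. Of 10 imprinted or neighbouring genes of its region, 8 were tested, of which 3 were higher and 5 lower, with a median log2 change of -0.19. Both mutant libraries lay above both controls in 2 and below both in 2 (16.1% and 20.4% of all tested genes). In edgeR 0 passed, 1 had an unadjusted p under 0.05 and DESeq2 called 1 (6.21% and 0.914% of all tested genes). Cd81, a tetraspanin gene, was at 163 and 216 CPM in the mutant libraries, against 115 and 112 CPM in the controls (log2 change 0.74, DESeq2 adjusted p = 0.0185). Kcnq1 had a log2 change of 0.86, which was 0.23 without Robo mutant 2, and was not called. Slc22a18 had one of 1.49, which was 2.44 without control 1 and 0.93 without control 2, and was not called.

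Among the INK4 genes, Cdkn2c was the member that lay lower. It encodes p18, an inhibitor of CDK4 and CDK6, on chromosome 4 (109660876 to 109667189, minus strand). Cdkn2c was at 7.52 and 2.99 CPM in Robo mutant 1 and Robo mutant 2 (376 and 136 counts), against 10.0 and 11.8 CPM in control 1 and control 2 (481 counts in each). Both mutant libraries were below both controls, Robo mutant 2 most of all. It was 2.08-fold lower, or -1.05 on the log2 scale (SE 0.55; edgeR, unadjusted p = 0.121, adjusted p = 0.917). Cdkn2c stood at -0.54 without Robo mutant 2 and -1.87 without Robo mutant 1.

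RefSeq lists 2 starts for Cdkn2c, and the 250 bases before the outer one are shown because Cdkn2c lay lower in both mutant libraries. They lie at chr4:109666757-109667006 on the minus strand and are written 5′ to 3′ along the gene.
Cdkn2c, outer start: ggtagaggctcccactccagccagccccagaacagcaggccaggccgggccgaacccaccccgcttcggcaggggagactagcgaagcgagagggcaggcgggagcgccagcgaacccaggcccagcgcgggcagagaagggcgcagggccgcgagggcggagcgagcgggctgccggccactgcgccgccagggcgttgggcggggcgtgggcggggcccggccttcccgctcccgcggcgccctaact
The window holds 3 GC boxes, GGGCGG, a motif found in 32.7% of RefSeq windows and left in lower case. It held no E2F motif, searched as TTTCGCGC, TTTGGCGC or TTTCCCGC, which 1.53% of windows hold.

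Cdkn2a, the gene of p16 and of ARF, was at the limit of detection. It lies on chromosome 4 (89274471 to 89294653, minus strand) and encodes both proteins from different first exons, which a gene-level count does not separate. It had 0 counts in both mutant libraries, against 2 and 0 counts in control 1 and control 2, all below the limit of 3 counts. No fold was computed. In mouse islets p16 is known to accumulate with age. The other INK4 genes were detected: Cdkn2b lay between 6.09 and 9.60 CPM over the 4 libraries, both ends in mutant libraries, and Cdkn2d was at 24.9 and 15.2 CPM in the mutant libraries, against 25.0 and 24.3 CPM in the controls.

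Among the 5 inhibitor genes of this set, Cdkn1a took the largest share in all 4 libraries. Cdkn2b and Cdkn2d were not counted in these shares. Cdkn2d was at 25.0 and 24.3 CPM in control 1 and control 2, and at 24.9 and 15.2 CPM in Robo mutant 1 and Robo mutant 2. These values are not set per kilobase, so they do not rank Cdkn2d against Cdkn1a. Per kilobase, Cdkn1a made up 57.6% and 65.5% of the 5 inhibitor transcripts in Robo mutant 1 and Robo mutant 2, against 42.6% and 38.0% in control 1 and control 2. Cdkn2c made up 14.7% and 4.02% in the mutant libraries, against 27.3% and 32.2% in the controls. Cdkn1b and Cdkn1c took overlapping shares, from 8.91% to 11.9% and from 17.8% to 20.9% over the 4 libraries. The summed D cyclins stood at 7.49 and 4.03 times the summed Cip/Kip transcripts in the mutant libraries, against 9.88 and 11.3 times in the controls. These shares and ratios were not tested.

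**Figure D3:**
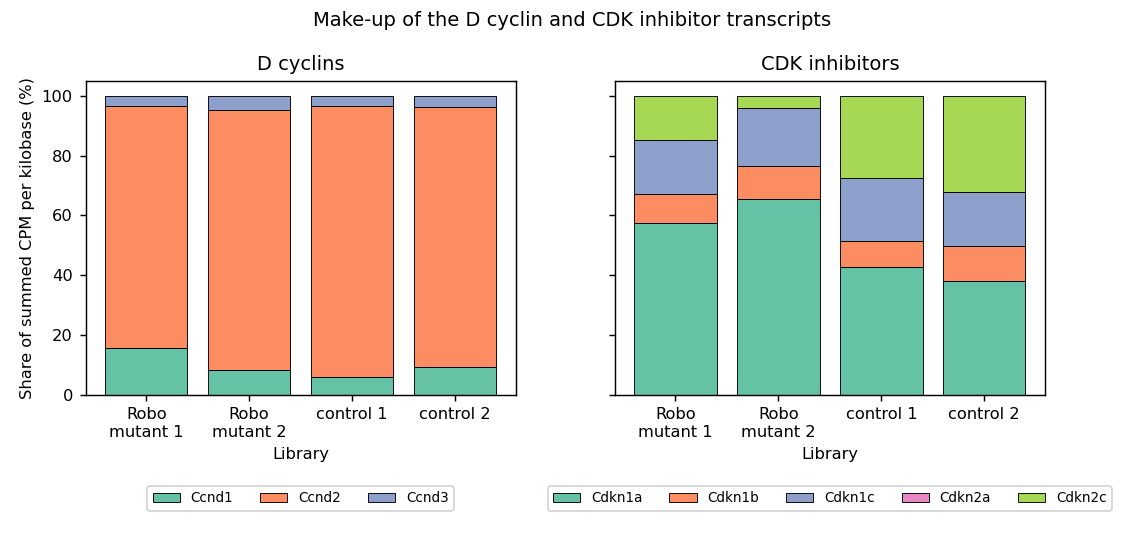
Share of each gene in the summed CPM per kilobase of the 3 D cyclins (left) and the 5 inhibitors (right) in each library. Cdkn1a takes 57.6% and 65.5% of the transcripts of these 5 inhibitors in Robo mutant libraries and 42.6% and 38.0% in controls. Ccnd2 takes over 81% of the D cyclins in every library.

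Several members differed between the mutant libraries. On log2(CPM + 1), Robo mutant 2 minus Robo mutant 1 was 0.72 for Cdkn1a, 0.68 for Cdkn1b, 0.59 for Cdkn1c and 0.57 for Cdk6, and -1.09 for both Ccnd1 and Cdkn2c. For Ccnd2 and Cdk4 it was -0.07 and -0.05. Robo mutant 2 was the library with the most acinar transcripts, led by Cel at 705 and 14664 CPM in the mutant libraries, against 1627 and 114 CPM in the controls. The part of acinar RNA in the values of Robo mutant 2 was not tested. The 10 immune markers, led by C1qa, summed to 73.5 and 80.4 CPM in the mutant libraries, against 63.5 and 34.3 CPM in the controls. In each library 1 was at 0, Itgam in both controls and another gene in each mutant library. All 10 had a positive log2 change, and both mutant libraries lay above both controls in 3 (16.1% of all tested genes). In edgeR 0 passed and DESeq2 called 1 (0.914% of all tested genes), Itgam, at 170 and 81 counts in the mutant libraries. The part of immune cells was not tested either.

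**Figure D4:**
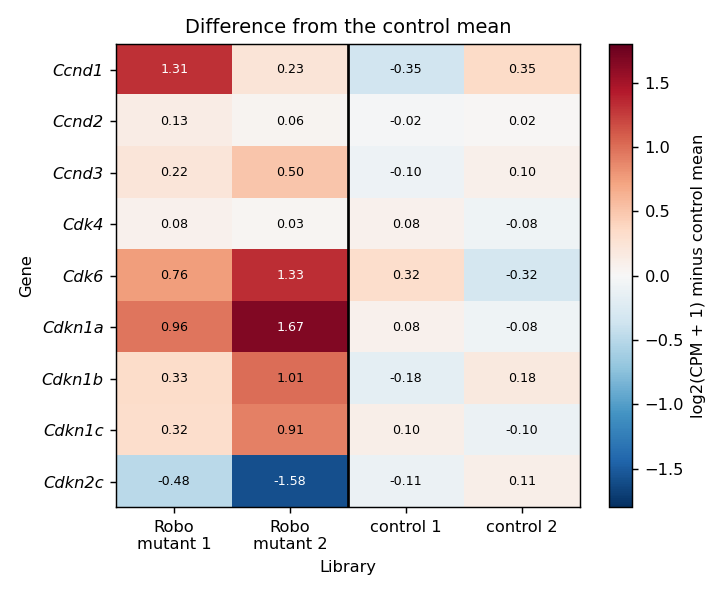
Difference of each tested gene from its control mean on log2(CPM + 1) in each library, with the value printed in each cell. Cdk6 and the 3 Cip/Kip genes are highest in Robo mutant 2, Ccnd1 is highest in Robo mutant 1 at 1.31, and Cdkn2c is lowest in Robo mutant 2 at -1.58.

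Other genes of the G1 to S transition made up a list of 24, which holds E2F, retinoblastoma family and cyclin E genes as well as Cdkn2b, Cdkn2d and the CDK-activating kinase genes Cdk7, Ccnh and Mnat1. Of the 24, 16 had a lower mean and 8 a higher one (median log2 change -0.17). The mutant libraries were both below the controls in 4 of them and both above in 0, against 20.4% and 16.1% of all tested genes. None passed in edgeR or DESeq2, with 1 at an unadjusted p under 0.05 (6.21% of all tested genes). That gene was Cdc25a, a phosphatase that activates CDK2, at 24.7 and 23.1 CPM in the mutant libraries, against 37.3 and 31.7 CPM in the controls (log2 change -0.53, unadjusted p = 0.0395 and adjusted p = 0.775 in edgeR). E2f1, which the retinoblastoma protein holds back, was at 28.5 and 23.9 CPM in the mutant libraries, against 33.8 and 36.4 CPM in the controls (-0.42). E2f5, a repressor E2F gene, had a log2 change of -0.58, which was -0.27 without Robo mutant 1 and -0.99 without Robo mutant 2. Rb1 was at 33.5 and 55.5 CPM in the mutant libraries, against 48.3 and 54.7 CPM in the controls.

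Markers of cycling cells had a lower mean in 14 of 20 and a higher one in 6 (median log2 change -0.71). The mutant libraries were both below the controls in 10 of the 20 and both above in 0, against 20.4% and 16.1% of all tested genes. In edgeR 0 passed, with 2 at an unadjusted p under 0.05, and DESeq2 called 1 (6.21% and 0.914% of all tested genes). This was Ccnb1, the mitotic cyclin B1 gene, at 2.46 and 2.62 CPM in the mutant libraries, against 16.4 and 10.7 CPM in the controls (log2 change -2.42, DESeq2 adjusted p = 0.0010). The kinetochore motor gene Cenpe had a log2 change of -1.40 and the mitotic kinase gene Cdk1 one of -1.20. For Cdk1 it was -0.71 without control 2, -0.79 without Robo mutant 2 and -1.76 without Robo mutant 1. The list summed to 337 CPM in Robo mutant 1 and 178 CPM in Robo mutant 2, against 278 and 335 CPM in control 1 and control 2, so Robo mutant 1 was the highest library by this sum.

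Regulators that act on the D cyclins and inhibitors lay on both sides. Of 25, 15 were higher and 10 lower, with a median log2 change of 0.055. Both mutant libraries lay above both controls in 5 and below both in 4, shares near the 16.1% and 20.4% of all tested genes. None passed in edgeR or DESeq2, and 1 had an unadjusted p under 0.05 (6.21% of all tested genes): Nfatc1, a calcineurin-dependent factor gene, at 18.9 and 22.1 CPM in the mutant libraries, against 28.5 and 36.1 CPM in the controls (log2 change -0.66). The factor gene Klf4 (1.05) and the prolactin pathway gene Stat5a (0.57) were higher in both mutant libraries and not called. Klf4 was at 1.64 without control 1 and 0.63 without control 2 on the log2 scale, and Stat5a at 0.35 and 0.84. Men1, whose product menin sustains Cdkn1b and Cdkn2c in mouse islets, was at 58.4 and 53.3 CPM in the mutant libraries, against 64.1 and 66.7 CPM in the controls. Prlr, the prolactin receptor gene, was at 114 and 82.1 CPM in the mutant libraries, against 138 and 120 CPM in the controls.

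**Figure D5:**
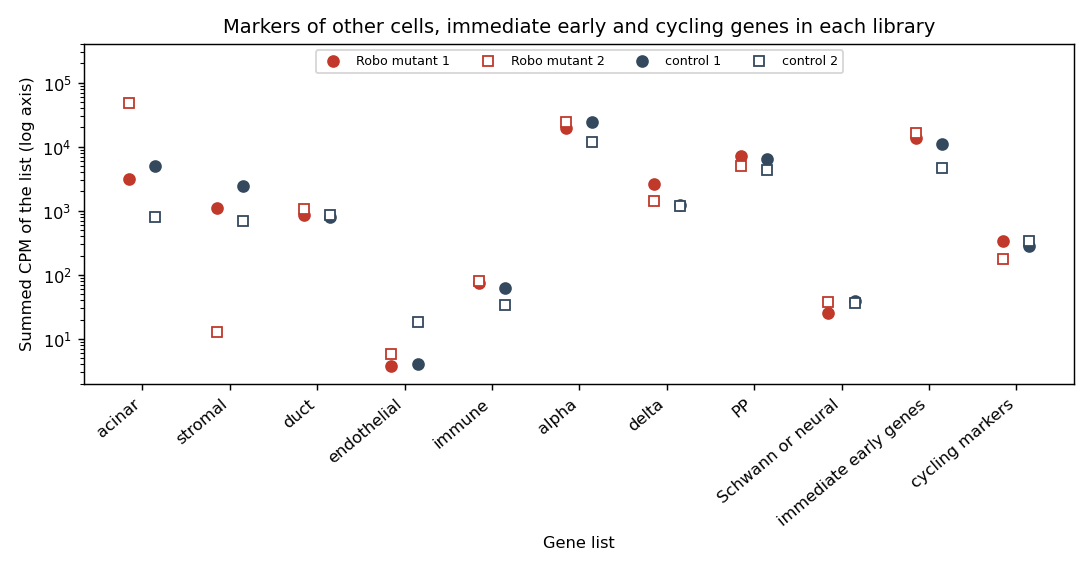
Summed CPM of each gene list in each library, on a log axis. The acinar sum is highest in Robo mutant 2 (48788 CPM), the stromal sum is lowest there (12.9 CPM), and the immediate early sum is higher in both Robo mutant libraries than in both controls.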

How the data were processed

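RNA was sequenced from mCherry-sorted β cells after SMART-Seq v4 cDNA synthesis and Nextera XT tagmentation, per the labels' protocols, which keeps no strand information. The submitters' processing notes name RSEM 1.3.0, STAR 2.5.3a, edgeR 3.16.5 and bcl2fastq 2.20.0.422, with no role, and build GRCm38. The deposited table holds gene-level estimated counts from RSEM in whole numbers. Its name calls them normalized, but the columns sum to different totals, so they were treated as estimated counts. An earlier rescaling is possible, and the limit of 3 counts covers counting error only. Replicate numbers only name libraries, in accession order.

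Counts were already whole, so rounding left them as deposited. Genes reaching 10 counts in 2 or more libraries were tested together with edgeR 4.0.16 (glmQLFit and glmQLFTest, TMM, R 4.3.3), two-sided, Robo mutant against control, with Benjamini-Hochberg adjustment at 0.05. Standard errors are the log2 change over the root of F, and 95% intervals use 4.49 degrees of freedom. DESeq2 1.42.0 and limma 3.58.1 were run as alternatives, with 11 alternatives in all. The code was tested on simulated data. Recovery of changed genes was required there only at a spread between libraries far below the one estimated here (common dispersion 0.374). That check does not say how many true changes the test would miss in these libraries. Locations and lengths came from GENCODE M21 (GRCm38, 51719 identifiers matched), upstream sequences from RefSeq (7 of the 10 genes). Transcripts of other genes with at least 90% identity over at least 500 bases were sought with BLAST 2.17.0, and those found were the overlapping neighbours of Ccnd1 and Cdk4. The table held 0 columns of other samples. Named genes were the 10 members, Robo1, Robo2, the 3 of smallest p in each pathway list and any past the threshold, the top marker of a cell type list that moved with a member, and the 3 nearest in pattern to the 2 members of smallest p. Trp53, Myc, Rb1, Men1, Prlr, Cdkn2b, Cdkn2d, Oraov1, Tspan31, Ins2, Ucn3, Fos, Bysl, C1qa, Itgam, Egr2, Fosl1, Cdk7, Ccnh and Mnat1 were named besides. Members and lists were chosen with earlier results of these data known, and the p53 half-site was added as a motif after the sequences were seen.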

Additional observations from a re-analysis of the deposited data

How the results depend on the processing

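Of the 9 tested genes, 8 kept the sign of their log2 change under all 11 alternatives, and Cdk4 did not: its value was -0.0027 with no factor beyond the library total and ran from -0.023 to 0.14 with a library left out, the lowest without control 2. The alternatives were other scalings, no filter, a filter of 50 counts, DESeq2, limma, and each library left out. The number of genes past the threshold was 0 with all libraries and 151 with DESeq2, and ran from 0 to 1 with a library left out. Of the 9 genes, 0 passed with all libraries, 1 in DESeq2 and 0 with any library left out. At an unadjusted p under 0.05 there were 1 of the 9 in edgeR, 2 in DESeq2 and from 1 to 5 with a library left out. Over all genes that number was 1025 (6.21%) in edgeR and 1209 in DESeq2. Among the runs with a library left out, the number was highest without Robo mutant 1, for the 9 genes and for all genes alike. The numbers over all genes in each of these runs are given below, and the 9 genes were not tested against them. Counts of genes whose groups do not overlap with a library left out were added after the data were seen, and ran from 6 to 8 above the controls and 1 below. Scaling by totals alone moved the median log2 change of all genes from -0.013 to -0.071. Using the longest transcript as length gave mean levels of 9.26 CPM per kilobase for Ccnd3 (4.07 with merged exons), 17.1 for Cdkn1a (10.0), 68.2 for Cdk4 (43.1) and 138.1 for Ccnd2 (92.9). It gave mean shares of 62.0% for Cdkn1a (50.9%), 15.8% for Cdkn2c (19.6%) and 5.75% for Ccnd3 (3.78%). A library left out leaves 1 sample in its genotype, taken to vary like the other genotype. Without a Robo mutant library the number of genes at an unadjusted p under 0.05 was 3038 and 2769, without a control library 187 and 181. No paired analysis was possible because the labels give no replicate numbers and nothing pairs a mutant with a control library.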
